A study of Mus musculus with 6 samples.

Results

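The genes described here are 42 genes of cholesterol and fatty acid synthesis, taken by symbol from a table of 35688 gene rows. A sterol branch of 25 genes holds the enzymes of the mevalonate and sterol pathway, the proteins that sense and control sterols, and 3 genes of cholesterol transport. A fatty acid branch of 17 genes holds the enzymes that make, elongate, desaturate and activate fatty acids. All 42 symbols had 1 row each. They were measured by poly(A) RNA sequencing in m1102, a mouse ovarian surface epithelial cell line, in 3 libraries of untreated cells (controls) and 3 of cells given 10 ng/mL TGFB1 for 4 days. Both groups grew in alpha-minimum essential medium with 4% fetal bovine serum, ITSS and EGF. The labels give neither a passage nor separately treated cultures, so each p-value reflects variation among these libraries, which may be technical.

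Cells make cholesterol from acetyl-CoA through mevalonate, isoprenoid phosphates, squalene and lanosterol. Transcription of these enzymes is driven by the membrane-bound factors SREBP-2 (Srebf2) and SREBP-1 (Srebf1). Their escort protein SCAP carries them from the endoplasmic reticulum for cleavage when sterols are low, and INSIG proteins hold SCAP back when sterols are high. SREBP-1 is best known for fatty acid synthesis and desaturation, and SREBP-2 for sterol enzymes. Cells also take up cholesterol from lipoproteins through receptors, and free sterol from this source lowers SREBP cleavage.

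Values are abundances on a TPM (length-normalized transcript abundance) scale. The table gives no read counts, so depth is unknown. The limma test was run on log2(TPM + 1) for the 12257 rows whose mean reached 1 TPM, and calls were made where the adjusted p was under 0.05. Means are given ± SD with n = 3 per group. TGFB1 replicate 1 stood apart from all other libraries, at 46.6 on the first principal component (70.7% of the variance) against 18.1 to 20.2 for the other treated libraries and -29.9 to -27.1 for the controls. The TGFB1 targets Ctgf, Col1a1 and Skil rose, by log2 fold changes of 2.70, 4.35 and 0.57. Smad7 was at 0.29 and did not pass (adjusted p = 0.0949), and Tgfbi was under the filter.

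Of 10 markers of the labelled cell type, Wt1, Krt7, Krt18, Upk3b, Msln and Nr2f2 passed the filter, while Krt19 was at 1.65 and 0.246 TPM, Lhx9 and Aldh1a2 were under 0.1 TPM in both group means, and Emx2 was listed at 0. Krt7, Krt18 and Upk3b fell with TGFB1, which is 50% of the 6 tested, against 14.6% of all tested genes called lower. Wt1, Msln and Nr2f2 did not pass (adjusted p = 0.175, 0.0570 and 0.399). The Upk3b call was lost without any 1 control (adjusted p up to 0.107). Among fat cell markers, Adipoq, Plin1, Cidec and Lep were under 1 TPM in every library, while Fabp4 rose from 0.512 ± 0.0327 to 7.37 ± 2.19 TPM and Retn from 1.40 ± 0.384 to 4.65 ± 0.356 TPM. Fabp4 was under 1 TPM in every control and passed the filter only through the treated libraries, which favours a rise. With a pseudocount of 5 in place of 1 the log2 fold change went from 2.43 to 1.15 for Fabp4. For Retn it went from 1.25 to 0.59. The summed level of the 6 fat cell markers was 1.51 to 2.38 TPM in the controls and 9.59 to 14.2 TPM in the treated libraries. Steroid-making cell markers other than Star, namely Cyp11a1, Cyp17a1, Hsd3b1 and Lhcgr, were under 1 TPM in both group means. Of 6 macrophage markers Cd68 alone passed the filter, and it fell, with a summed level of 19.3 to 27.1 TPM in the controls and 8.33 to 11.0 TPM after TGFB1. The summed level was 35.8 to 38.9 and 35.4 to 36.1 TPM for 6 granulosa markers and 1.07 to 1.27 and 1.74 to 2.30 TPM for 5 endothelial markers. Among the granulosa markers Inha fell from 16.9 ± 1.06 to 9.83 ± 2.27 TPM, a call lost without control replicate 2 or 3 (adjusted p up to 0.0560), and Foxl2 rose from 18.5 ± 1.15 to 22.7 ± 0.549 TPM, a call lost without control replicate 1 or 3 or TGFB1 replicate 2 or 3 (adjusted p up to 0.0833). Inhba, also a granulosa marker, was at a log2 fold change of 0.69 and did not pass (adjusted p = 0.0879). The part of these shifts in the results that follow was not tested.

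After TGFB1, genes of both branches were lower and none of the 41 tested was called higher. Of 41 tested members 16 fell and 0 rose, against 14.6% of all tested genes called lower, 15.8% called higher and 30.4% called in either direction. Those 16 were 9 of 24 tested sterol branch genes and 7 of 17 fatty acid genes. The largest fall was that of the desaturase gene Scd1, to 0.436 times its untreated mean, followed by the sterol sensor gene Insig1, to 0.504 times. The rest fell by less, down to a log2 fold change of -0.22 for Fads1. In RNA from bulk cultures, fewer cells of a type and less RNA per cell cannot be told apart.

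The groups did not overlap for 24 tested members that were lower in every treated library, which is 58.5% of them against 23.6% of all tested genes. They did not overlap upwards for 2 members, Acly and Scd2, which is 4.88% against 26.3%. In either direction this came to 26 of 41 members, against 49.8% of all tested genes. The median log2 fold change was -0.33 over the tested sterol branch genes and -0.10 over the fatty acid genes, beside 0.02 over all tested genes. Taken against the control mean on the log2 scale, the sterol branch median was -0.21, -0.39 and -0.37 in TGFB1 replicates 1, 2 and 3, and the fatty acid median was -0.25, -0.13 and -0.18. The sterol median was thus nearest to the controls in TGFB1 replicate 1, the library that stood farthest from them over all genes.

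Counts of called members moved with the libraries used. Without control replicate 1, 2 or 3 the members called lower were 9, 4 and 6, and without TGFB1 replicate 1, 2 or 3 they were 18, 6 and 6. Calls over all genes moved too in these fits, from 915 to 1951 lower and from 1121 to 1992 higher. With all libraries they were 1788 and 1937. Among these 6 fits a member rose only without TGFB1 replicate 1, and it was Me1. When totals were rescaled to leave out mitochondrial genes and the 20 most abundant ones, 11 fell and 2 rose, so that 15.4% of member calls were rises, and over all genes the share of rises went from 52.0% to 62.7%. Srebf2, Scd1 and Elovl1 were called lower in all 16 alternatives.

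**Figure D1:**
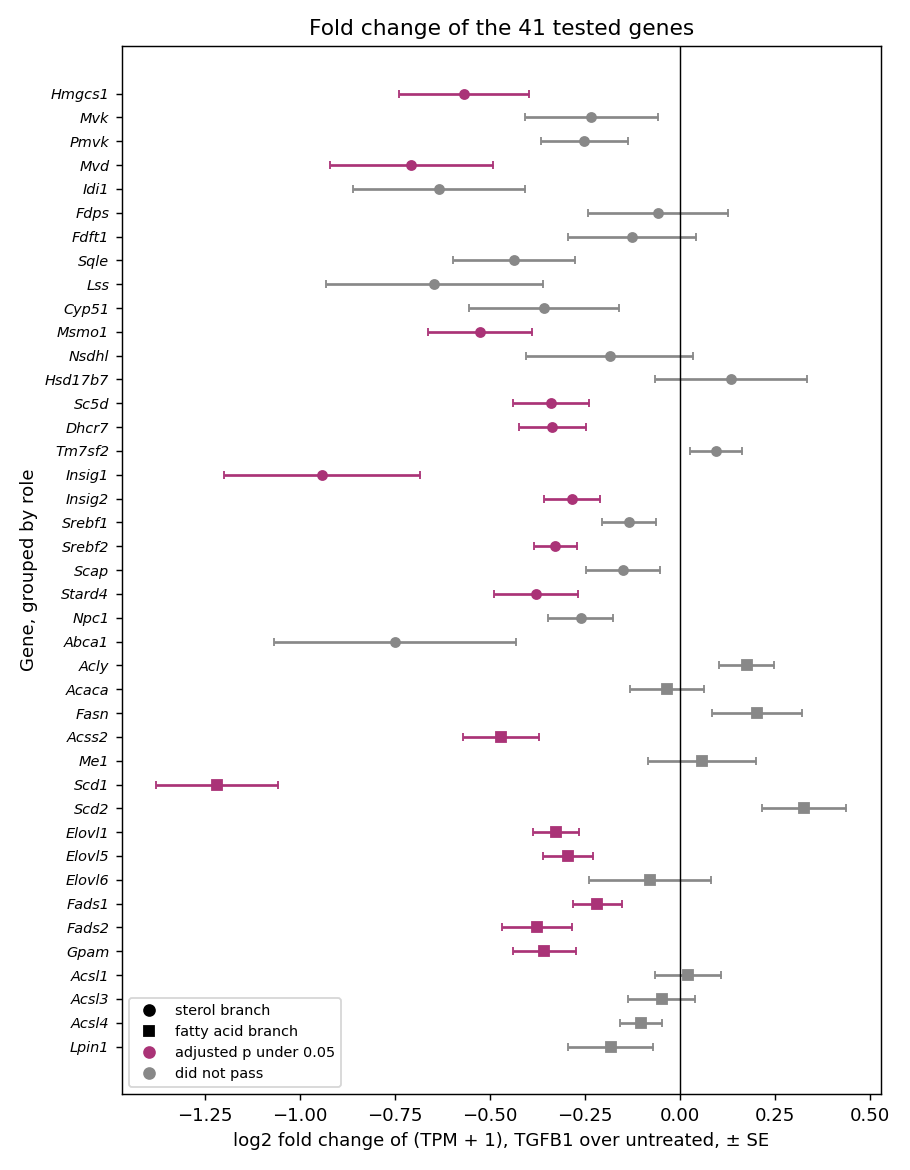
Log2 fold change of log-scale abundance (TPM + 1, TGFB1 over untreated, x axis) with its standard error for each of the 41 tested genes (y axis, grouped by role); circles are sterol branch genes, squares fatty acid genes, and coloured points have an adjusted p under 0.05. All 16 coloured points lie left of 0, from -1.22 for Scd1 to -0.22 for Fads1.

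Of 17 sterol enzymes 16 were tested, and 5 fell: Hmgcs1, Mvd, Msmo1, Sc5d and Dhcr7. This is 31.2%, against 14.6% of all tested genes called lower and 30.4% called in either direction. Hmgcs1, the HMG-CoA synthase that supplies the mevalonate pathway, was at 210.3, 140.5 and 129.5 TPM in the controls and 101, 106 and 108 TPM in the treated libraries. Every treated value lay below every control value, and control replicate 1 was far above the other controls. The means were 160.1 ± 43.8 and 105 ± 3.67 TPM (log2 fold change -0.57, SE 0.172, adjusted p = 0.0464). Without control replicate 1 the fall was -0.35 and still called (adjusted p = 0.0246). Mvd, the mevalonate diphosphate decarboxylase, was at 54.7, 31.6 and 30.2 TPM without TGFB1 and 23.3, 21.5 and 22.9 TPM with it. Again no values overlapped and control replicate 1 was the highest (log2 fold change -0.71, SE 0.213, adjusted p = 0.0459, and -0.44 without that library, adjusted p = 0.0183).

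Msmo1, the sterol C4-methyl oxidase, was at 183, 133 and 141 TPM in the controls and 118, 95.2 and 102 TPM after TGFB1. The groups did not overlap, and the library numbered 1 was the highest of each (log2 fold change -0.53, SE 0.136, adjusted p = 0.0281). Sc5d, the lathosterol desaturase, was at 80.2, 77.7 and 78.8 TPM and then 72.3, 59.96 and 55.3 TPM. Its controls were close together, unlike those of the enzymes above, and all lay above the treated libraries (log2 fold change -0.34, SE 0.0998, adjusted p = 0.0423). Dhcr7, which makes cholesterol from its 7-dehydro precursor, was at 65.5, 57.1 and 53.4 TPM and then 48.4, 44.1 and 46.0 TPM, also without overlap (log2 fold change -0.34, SE 0.0880, adjusted p = 0.0293).

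None of these 5 enzyme calls held under every library left out. All 5 were lost without TGFB1 replicate 2 (adjusted p from 0.0811 to 0.115) and without TGFB1 replicate 3 (0.0702 to 0.104). Hmgcs1 and Mvd were lost without TGFB1 replicate 1 (adjusted p = 0.0587 to 0.0733). Msmo1, Sc5d and Dhcr7 were lost without control replicate 1 (0.0530 to 0.111), Hmgcs1, Mvd, Sc5d and Dhcr7 without control replicate 2 (0.0632 to 0.0973), and Mvd, Msmo1 and Sc5d without control replicate 3 (0.0518 to 0.114). All 5 were also lost with no filter on low genes (adjusted p up to 0.112), and Hmgcs1, Mvd and Sc5d after rescaling (up to 0.0619) and without the intensity trend (up to 0.0617). Under quantile normalization Hmgcs1 missed the threshold (adjusted p = 0.0531).

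The other tested enzymes did not pass. Idi1, the isopentenyl diphosphate isomerase, was at 76.9, 46.8 and 43.1 TPM and then 41.4, 30.5 and 31.97 TPM (log2 fold change -0.63, adjusted p = 0.0761). Sqle, the squalene epoxidase, was at 84.1, 58.3 and 61.5 TPM and then 58.0, 44.7 and 46.3 TPM (-0.44, adjusted p = 0.0819). Both had all treated values below all controls. Lss, the lanosterol synthase, was at 43.7, 28.0 and 23.5 TPM and then 27.1, 14.2 and 18.4 TPM (-0.65, adjusted p = 0.131), with TGFB1 replicate 1 inside the control range. Without TGFB1 replicate 1 Idi1, Sqle and Lss were called lower, at -0.77, -0.55 and -0.88 (adjusted p = 0.0433, 0.0321 and 0.0350). Without control replicate 1 these 3 were at -0.38, -0.27 and -0.40. Cyp51, the lanosterol demethylase, was at 64.3 ± 14.97 and 49.9 ± 10.9 TPM (-0.36, adjusted p = 0.216), at -0.18 without control replicate 1 and at -0.52 without TGFB1 replicate 1 (adjusted p = 0.0536).

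Pmvk, the phosphomevalonate kinase, was at 27.6, 21.9 and 20.5 TPM and then 18.5, 20.02 and 19.4 TPM, with all treated values below all controls (log2 fold change -0.25, SE 0.115, adjusted p = 0.142). Without control replicate 1 it was at -0.13. Mvk, the mevalonate kinase, overlapped between the groups (-0.23, SE 0.176), and was at -0.03 without control replicate 1 and -0.36 without control replicate 2. The log2 fold changes were -0.06 for the farnesyl diphosphate synthase gene Fdps and -0.13 for the squalene synthase gene Fdft1. Nsdhl and Hsd17b7, which act in removal of the sterol C4 methyl groups, were at -0.18 and 0.14. The sterol reductase gene Tm7sf2 was at 30.6 ± 1.01 and 32.8 ± 1.93 TPM (0.09, SE 0.0687), and 0.06 without TGFB1 replicate 3. Without control replicate 1 Fdps, Fdft1 and Nsdhl were at 0.12, 0.06 and 0.04, with the opposite sign, and Hsd17b7 was at 0.32. Without control replicate 2, or without TGFB1 replicate 1, Hsd17b7 was under 0. Ebp, the sterol isomerase that acts between these steps, was under the filter, at 0.148, 0 and 0.164 TPM in the controls and 0.907, 0.228 and 0.664 TPM after TGFB1, and was not tested. Idi1, Fdps and Fdft1 share 27.1%, 27.9% and 31.9% of their transcript 31-mers with other genes, which makes their values uncertain.

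**Figure D2:**
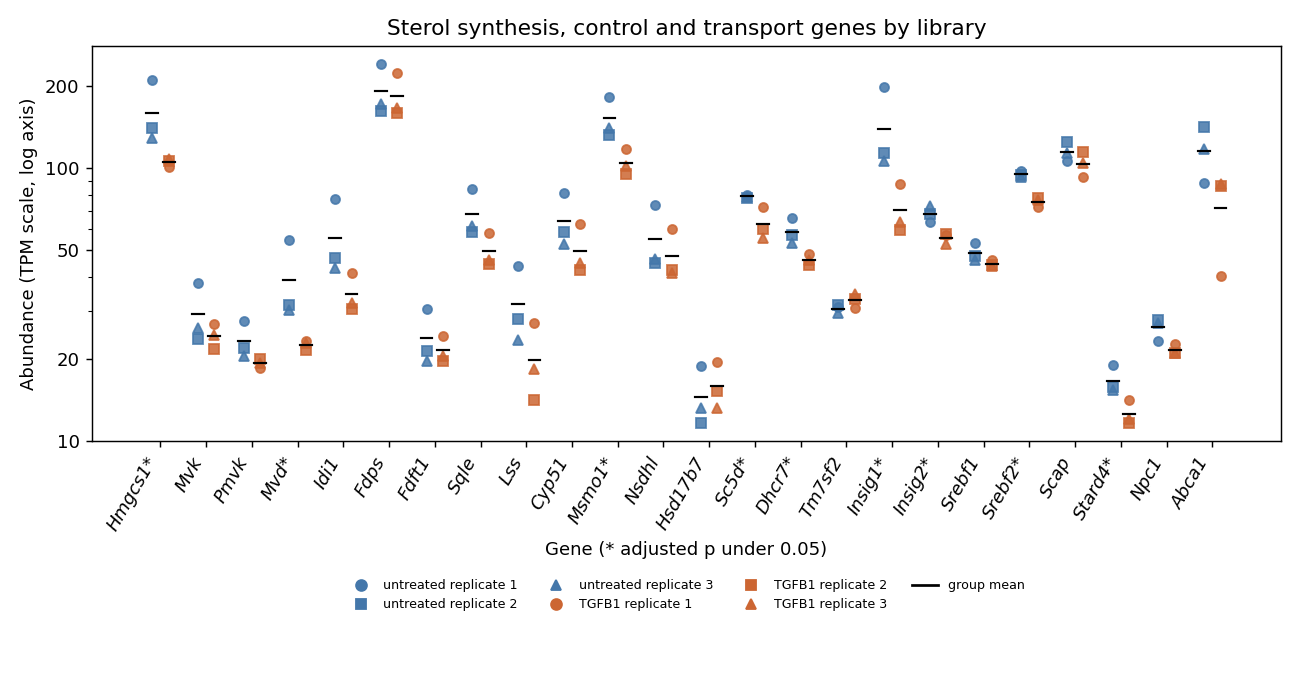
Abundance (TPM scale, log y axis) of the 24 tested sterol branch genes (x axis) in each library; blue symbols are untreated and orange symbols TGFB1 libraries, the symbol shape gives the replicate number, and bars are group means. Blue circles (control replicate 1) top most of the enzyme columns, as for Hmgcs1 at 210.3 against 140.5 and 129.5 TPM.

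Sterol enzymes also varied together among replicates of the same group. In 15 of the 16 tested enzymes control replicate 1 was the highest control, and in 13 TGFB1 replicate 1 was the highest treated library. The same 13 had replicate 1 highest in both groups, which is 81.2% of them against 18.2% of all tested genes and 35.3% of the fatty acid genes. Control replicate 1 was a median 1.46 times the other controls over these enzymes, and TGFB1 replicate 1 a median 1.23 times the other treated libraries, against 0.987 and 0.993 over all tested genes. Summed over the 17 enzymes, abundance was 1341, 949 and 941 TPM in the controls and 956, 772 and 796 TPM after TGFB1. The highest treated sum, in replicate 1, thus exceeded the control sums of replicates 2 and 3. The labels do not say that a replicate number marks a shared culture, day or batch, and the part of such a difference in these results was not tested.

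**Figure D3:**
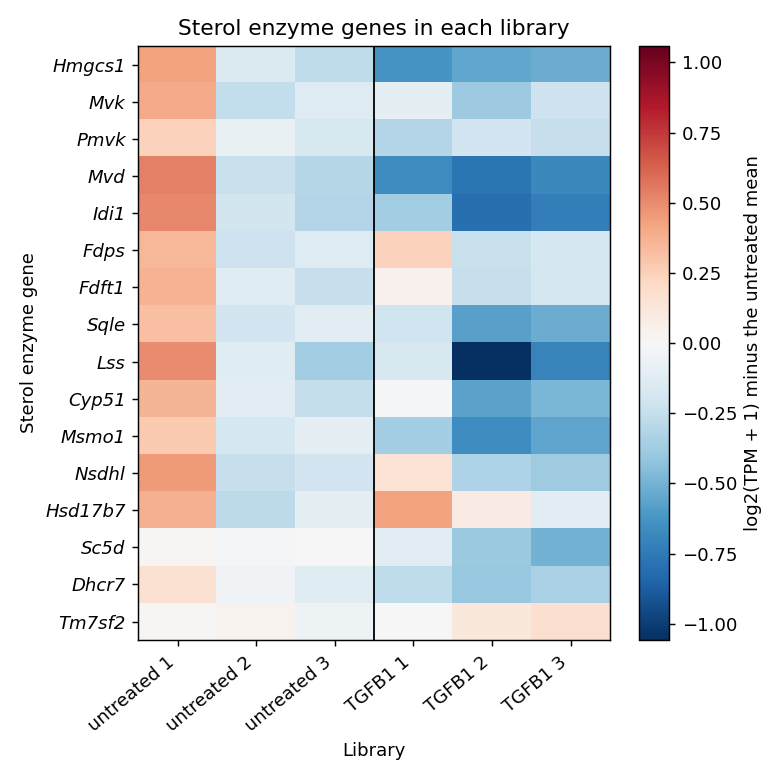
Difference of log2(TPM + 1) from the mean of the 3 untreated libraries (colour scale) for the 16 tested sterol enzymes (rows) in each library (columns; the vertical line separates untreated from TGFB1). Untreated library 1 is red in nearly every row, and TGFB1 library 1 is less blue than TGFB1 libraries 2 and 3 in most rows; the sums were 1341 and 956 TPM in the libraries numbered 1.

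All 5 regulators had lower means after TGFB1, and 3 were called: Insig1, Insig2 and Srebf2. This is 60%, against 14.6% of all tested genes called lower. Srebf2 (chromosome 15, 82147181 to 82205379, plus strand, GRCm38) was at 97.6, 94.6 and 92.7 TPM in the controls and 72.3, 77.7 and 76.4 TPM after TGFB1. The controls were tightly grouped and all above the treated libraries, with means of 95.0 ± 2.47 and 75.5 ± 2.82 TPM (log2 fold change -0.33, SE 0.0567, adjusted p = 0.00699). The highest adjusted p over the 16 alternatives was 0.0300. Srebf1 was at 53.2, 47.8 and 46.3 TPM and then 46.0, 44.2 and 43.8 TPM. Its groups did not overlap, by a narrow margin, and it did not pass (log2 fold change -0.13, SE 0.0708, adjusted p = 0.199), with a fold change of -0.07 without control replicate 1. Scap, the escort gene, was at 106, 125 and 114 TPM and then 92.7, 114 and 104 TPM, with overlap (-0.15, adjusted p = 0.282). Its fold change was -0.09 without control replicate 2 and -0.07 without TGFB1 replicate 1.

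Insig1, itself a target of SREBPs, was at 199, 114 and 106 TPM in the controls and 87.7, 59.3 and 63.9 TPM after TGFB1. As with the enzymes, replicate 1 was the highest of each group and the groups did not overlap (log2 fold change -0.94, SE 0.258, adjusted p = 0.0340). Without control replicate 1 the fold change was -0.66 and the call was lost (adjusted p = 0.0522). It was also lost without control replicate 2, TGFB1 replicate 2 or TGFB1 replicate 3 or with the filter dropped (adjusted p up to 0.0921). Insig2, the paralog that does not depend on SREBPs in the same way, was at 63.4, 67.8 and 73.0 TPM and then 56.9, 57.7 and 52.7 TPM. In it replicate 1 was the lowest control, and no values overlapped (-0.28, SE 0.0736, adjusted p = 0.0287). The Insig2 call was lost without control replicate 2 or 3 and without TGFB1 replicate 2 or 3 (adjusted p up to 0.102).

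Promoter sequences are shown for sterol branch genes that fell, because the SREBP pathway acts through short elements there. RefSeq windows (GRCm38.p6, 250 bases before to 50 after a start) were found for 34 of the 42 members and 13 of the 16 that fell. Those with no entry were Scd1, Scd2, Fads1, Stard4, Npc1, Fdps, Fdft1 and Sqle. The letters TCACNCCAC (an SREBP element), CCAAT (an NF-Y box), CACGTG (an E-box) and GGGCGG (a GC box) were searched on both strands. None of these sets of letters contains another. Where a gene had several windows, all of them were searched. Printed below, 5′ to 3′ on the gene's strand, are the bases that end at the RefSeq start or, where GENCODE M21 places the gene's start earlier, just before it, with SREBP elements and NF-Y boxes in capitals (CCAAT reads ATTGG on the other strand). They are the 4 called sterol branch genes with the largest falls among those with 1 window and at least 100 such bases, and Srebf2.
Insig1, chr5:28071162-28071362, plus strand: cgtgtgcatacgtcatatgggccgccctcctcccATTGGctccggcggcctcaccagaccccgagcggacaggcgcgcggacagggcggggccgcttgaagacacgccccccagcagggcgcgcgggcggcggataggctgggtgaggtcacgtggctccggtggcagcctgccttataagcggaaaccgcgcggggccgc
Mvd, chr8:122443423-122443672, minus strand: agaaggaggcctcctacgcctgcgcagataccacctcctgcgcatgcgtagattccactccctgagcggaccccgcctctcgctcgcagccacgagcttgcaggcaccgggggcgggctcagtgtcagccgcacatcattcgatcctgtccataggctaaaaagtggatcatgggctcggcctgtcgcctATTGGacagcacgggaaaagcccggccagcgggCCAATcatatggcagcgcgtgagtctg
Hmgcs1, chr13:119690101-119690350, plus strand: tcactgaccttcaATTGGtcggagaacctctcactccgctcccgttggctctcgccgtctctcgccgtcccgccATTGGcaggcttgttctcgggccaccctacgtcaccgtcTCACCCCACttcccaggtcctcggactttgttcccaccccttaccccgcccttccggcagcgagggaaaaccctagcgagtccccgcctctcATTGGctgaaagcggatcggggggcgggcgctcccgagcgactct
Sc5d, chr9:42264301-42264550, minus strand: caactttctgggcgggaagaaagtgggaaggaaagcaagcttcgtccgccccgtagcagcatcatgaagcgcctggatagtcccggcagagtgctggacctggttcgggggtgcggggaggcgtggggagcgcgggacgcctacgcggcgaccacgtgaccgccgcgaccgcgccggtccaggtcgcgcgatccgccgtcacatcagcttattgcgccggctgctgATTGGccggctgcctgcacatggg
Srebf2, chr15:82147019-82147180, plus strand: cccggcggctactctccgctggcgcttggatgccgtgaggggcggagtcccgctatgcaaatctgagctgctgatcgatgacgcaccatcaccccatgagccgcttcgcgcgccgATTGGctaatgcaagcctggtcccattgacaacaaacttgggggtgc

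The SREBP letters stood in the windows of 2 members, Hmgcs1 and Acsl1, which is 5.88% of members against 1.44% of the 27025 genes in the table. NF-Y boxes stood in all 14 sterol enzymes with a window and in 64.3% of fatty acid genes, against 41.1% of all genes. Of the 13 fallen members with a window 12 held one, and of all 34 members with a window 27 did. GC boxes were in 82.4% of members and 38.2% of all genes, and E-boxes in 20.6% and 8.09%. The set of all genes was not filtered by abundance, whereas 41 of the 42 members passed the filter of 1 TPM. The part of this in these differences was not tested. Among genes with 1 window, where the same length was searched in each, NF-Y boxes were in 76.0% of members and 38.2% of all. The SREBP letters were there in 1 of 25 members, or 4.0%, against 1.19% of all. A match is a description of these letters and does not show that a factor binds there. Sites that differ from the letters were not searched, so a window with no match may still hold an element.

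Of the 3 transport genes 1 fell, which is 33.3% against 14.6% of all tested genes called lower. Stard4, a carrier that moves sterol between membranes, was at 19.0, 15.7 and 15.3 TPM and then 14.1, 11.7 and 12.0 TPM. Its groups did not overlap and replicate 1 was the highest of each (log2 fold change -0.38, SE 0.111, adjusted p = 0.0426), but the call was lost without any 1 library other than TGFB1 replicate 1, with no filter and after rescaling (adjusted p up to 0.122). Npc1, which exports cholesterol from lysosomes, was at 23.3, 27.9 and 27.2 TPM and then 22.7, 20.99 and 21.1 TPM (-0.26, adjusted p = 0.0607). It was called lower without control replicate 1 (-0.34, adjusted p = 0.0332), without TGFB1 replicate 1 (-0.30, adjusted p = 0.0453) and under median-of-ratios scaling (adjusted p = 0.0446). Abca1, the cholesterol efflux transporter, was at 88.4, 141 and 118 TPM and then 40.3, 86.3 and 87.6 TPM. All treated values lay below the controls, with TGFB1 replicate 1 far below the rest, and the gene did not pass (-0.75, SE 0.319, adjusted p = 0.120). Without TGFB1 replicate 1 its fold change was -0.39 (adjusted p = 0.143).

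In the fatty acid branch the core synthesis enzymes were not called, apart from Acss2. Fasn, the fatty acid synthase, was at 90.1, 79.2 and 80.0 TPM in the controls and 114, 87.2 and 87.6 TPM after TGFB1 (log2 fold change 0.20, adjusted p = 0.237), with overlap. Without TGFB1 replicate 1 it was at 0.07. Acaca, the acetyl-CoA carboxylase, was at 40.1 ± 2.81 and 39.3 ± 4.38 TPM (-0.03), and 33.5% of its 31-mers occur in another gene. Acly, which makes cytosolic acetyl-CoA from citrate, was at 100.2, 98.5 and 92.2 TPM and then 119, 107 and 104 TPM. Every treated Acly value lay above every control, yet the gene did not pass (0.18, SE 0.0714, adjusted p = 0.106), except after rescaling (0.23, adjusted p = 0.0480).

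Acss2, which makes acetyl-CoA from acetate, fell from 5.42, 5.80 and 5.56 TPM to 3.44, 4.15 and 3.73 TPM, without overlap (log2 fold change -0.47, SE 0.101, adjusted p = 0.0149). The call was lost without control replicate 2 or 3 (adjusted p = 0.0513 and 0.0574), and with a pseudocount of 5 the fold change was -0.27. Me1, the cytosolic malic enzyme that supplies NADPH, was at 205, 216 and 207 TPM and then 171, 249.6 and 243 TPM. TGFB1 replicate 1 lay below all controls and the other treated libraries above them (0.06, adjusted p = 0.781). Without that library Me1 was called higher (0.23, adjusted p = 0.0126). A share of 36.9% of its 31-mers is found in another gene, so its values are uncertain.

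The desaturase and elongase genes had the largest share of calls of the 6 member groups, with 5 of 7 lower: Scd1, Elovl1, Elovl5, Fads1 and Fads2. This is 71.4%, against 14.6% of all tested genes called lower. Scd1, a stearoyl-CoA desaturase that makes monounsaturated fatty acids, lies on chromosome 19 at 44394455 to 44407879 on the minus strand (GRCm38). It was at 369, 338 and 372 TPM in the controls and 117, 177 and 176 TPM after TGFB1. All treated values lay far below all controls, and TGFB1 replicate 1 was the lowest of all (359 ± 18.9 and 157 ± 34.2 TPM, log2 fold change -1.22, SE 0.160, adjusted p = 0.00274). Over the 16 alternatives the fold change ran from -1.32 to -1.02 and the highest adjusted p was 0.0172.

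Scd2, the neighbouring desaturase gene (chromosome 19, 44293674 to 44306864, plus strand), went the other way. It was at 576, 498 and 497 TPM in the controls and 766, 626 and 589 TPM after TGFB1. Every treated value lay above every control, and replicate 1 was the highest of each group (log2 fold change 0.33, SE 0.111), but Scd2 did not pass (adjusted p = 0.0650). It was called higher under quantile normalization (0.42, adjusted p = 0.0276) and after rescaling (0.38, adjusted p = 0.0373), and without TGFB1 replicate 1 its fold change was 0.22. The ratio of Scd2 to Scd1 was 1.56, 1.48 and 1.34 in the controls and 6.54, 3.54 and 3.35 after TGFB1, so that Scd2 was the more abundant of the pair in every library. The groups did not overlap in this ratio. The ratio was chosen after its values were seen, so it is given as a description only, without a p-value. The summed level of the pair was 883 ± 55.9 and 817 ± 60.2 TPM. Shares of 8.18% and 6.81% of the 31-mers of Scd1 and Scd2 occur in other genes. For both, no single gene held more of them than Scd3, which was under 0.2 TPM in both group means. The part that Scd1 and Scd2 share with each other was not worked out.

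**Figure D4:**
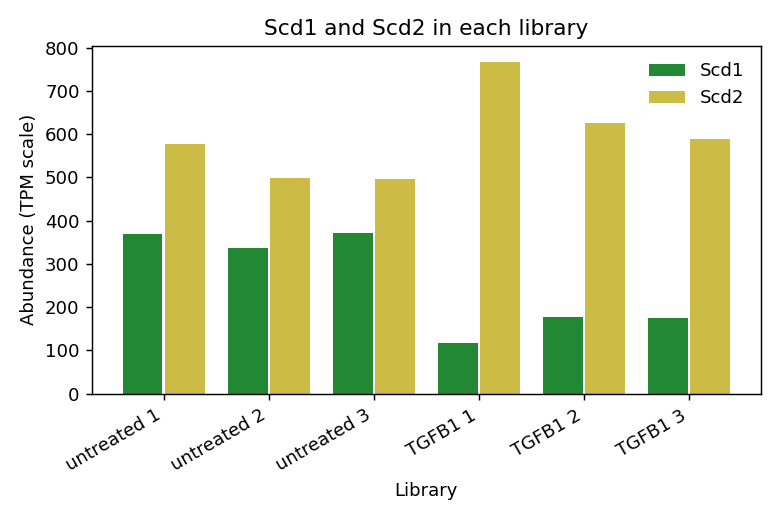
Abundance (TPM scale, y axis from 0) of Scd1 (green bars) and Scd2 (yellow bars) in each of the 6 libraries (x axis); each bar is 1 library, so there are no error bars. Scd1 bars drop from between 338 and 372 to between 117 and 177 TPM with TGFB1, while Scd2 bars are 497 to 576 and then 589 to 766 TPM.

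Elovl1, an elongase of saturated very long chains (chromosome 4, 118428093 to 118432953, plus strand), was at 52.4, 53.4 and 54.2 TPM and then 41.9999, 44.5 and 40.6 TPM. The groups were well separated (log2 fold change -0.33, SE 0.0604, adjusted p = 0.00888, and at most 0.0456 over the 16 alternatives). Its exons overlap those of Cdc20 on the opposite strand, and use of strand in counting was not given in the sources used here. Elovl5, which elongates polyunsaturated chains, was at 135, 135 and 134 TPM and then 101, 115 and 113 TPM. Its groups also did not overlap (-0.29, SE 0.0660, adjusted p = 0.0175), though the call was lost without any 1 control (adjusted p up to 0.0638). Elovl6, which elongates palmitate, did not pass (-0.08), with means of 7.61 ± 1.56 and 7.13 ± 1.19 TPM.

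Fads2 and Fads1, the delta-6 and delta-5 desaturases that act before and after Elovl5, lie side by side on chromosome 19, at 10062765 to 10101746 on the minus strand and 10182888 to 10196877 on the plus strand. Fads2 was at 261, 259 and 239 TPM and then 170.4, 208 and 209 TPM (log2 fold change -0.37, SE 0.0914, adjusted p = 0.0232). Fads1 was at 288, 311 and 304 TPM and then 241, 269 and 267 TPM (-0.22, SE 0.0643, adjusted p = 0.0438). Neither gene's groups overlapped, and TGFB1 replicate 1 was the lowest library for each. Both calls were lost without any 1 control or with the filter dropped (adjusted p up to 0.131). Fads1 was also lost without TGFB1 replicate 2 or 3, under quantile normalization, after rescaling and without the intensity trend (adjusted p up to 0.115).

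**Figure D5:**
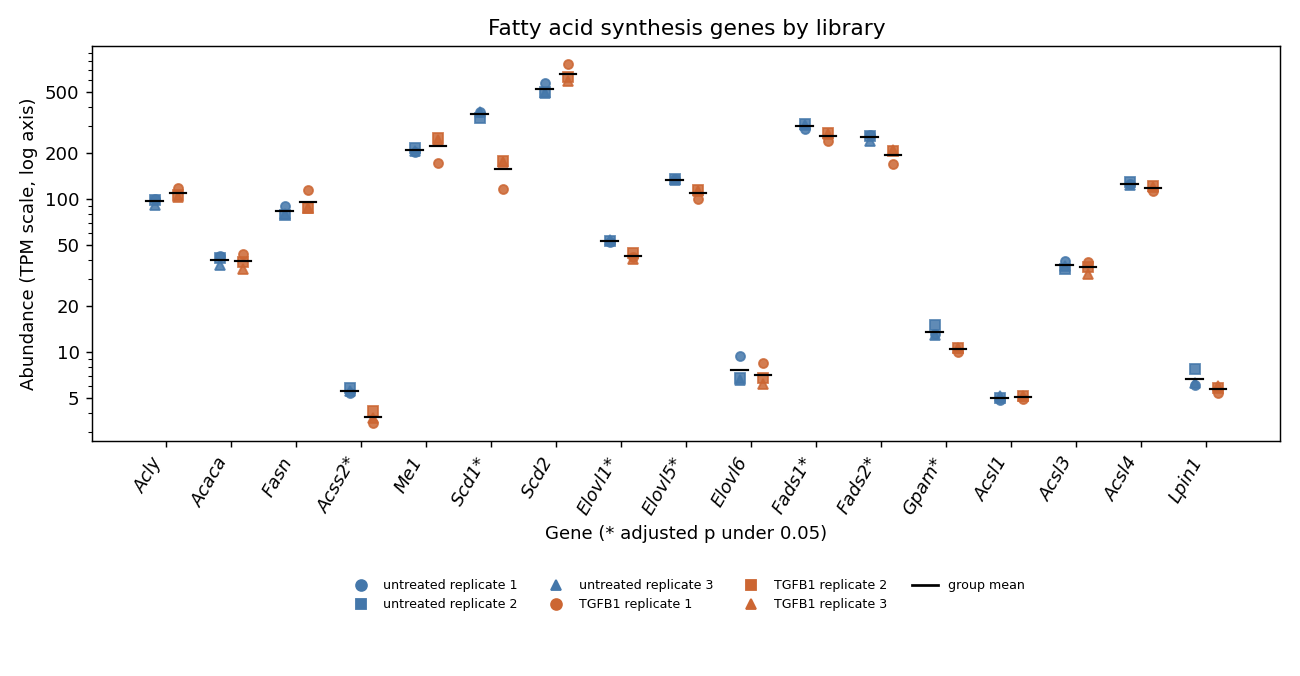
Abundance (TPM scale, log y axis) of the 17 fatty acid genes (x axis) in each library, with blue untreated and orange TGFB1 symbols, shapes for replicate numbers and bars for group means. Among the desaturases Scd1 separates most (338 to 372 against 117 to 177 TPM), while Fasn, Acaca and Me1 overlap between groups.

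Of the 5 genes of fatty acid activation and glycerolipid synthesis 1 fell, which is 20% against 14.6% of all tested genes called lower. Gpam, the mitochondrial acyltransferase that starts glycerolipid synthesis, was at 13.1, 14.97 and 12.9 TPM and then 10.0, 10.7 and 10.6 TPM. The groups did not overlap (log2 fold change -0.36, SE 0.0837, adjusted p = 0.0205), and the call was lost without control replicate 2 or 3 or TGFB1 replicate 2 or 3 (adjusted p up to 0.0546). The phosphatidate phosphatase gene Lpin1 was at 6.70 ± 0.938 and 5.76 ± 0.285 TPM (-0.18), and at -0.08 without control replicate 2. Acsl1, Acsl3 and Acsl4, which attach coenzyme A to long chains, were at 0.02, -0.05 and -0.10. Acsl4, which prefers arachidonate, had all treated values below all controls, at 126, 129.7 and 124 TPM and then 113, 121 and 119 TPM, but missed the threshold (adjusted p = 0.202).

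Other genes around sterol synthesis gave mixed directions. Of 11 tested genes of the mevalonate pathway and its side branches 1 fell and 1 rose. This is 18.2% called, against 30.4% of all tested genes. Por, the reductase that supplies electrons to Cyp51 and Sqle, fell from 117 ± 6.96 to 89.9 ± 6.18 TPM, a log2 fold change of -0.38 (adjusted p = 0.0110). Ggps1, which diverts farnesyl diphosphate to protein prenylation, rose from 36.0 ± 0.617 to 42.8 ± 1.37 TPM (0.24, adjusted p = 0.0209), a call lost without any 1 control or TGFB1 replicate 2 or 3 (adjusted p up to 0.0799).

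Of 11 genes of SREBP processing and sterol control at the endoplasmic reticulum 3 rose and 1 fell. A share of 36.4% was thus called, near the 30.4% of all tested genes. The ubiquitin ligase gene Rnf145 rose from 50.9 ± 3.23 to 91.1 ± 12.2 TPM, a log2 fold change of 0.82 (adjusted p = 0.00259). Erlin2, which takes part in sterol-controlled protein degradation, rose from 40.1 ± 2.76 to 58.1 ± 1.58 TPM (0.53, adjusted p = 0.00270). Paqr3 rose (0.45, and 0.27 with a pseudocount of 5), a call lost without any 1 control or TGFB1 replicate 2, with no filter and under quantile normalization (adjusted p up to 0.0819). Aup1, named after its values were seen, fell (-0.32, adjusted p = 0.00490). The protease genes that cut SREBPs, Mbtps1 and Mbtps2, were at 0.19 and -0.09 and did not pass.

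Of 3 tested genes of liver X receptors (LXR) and their targets 2 fell and 0 rose. The share called was 66.7%, against 30.4% of all tested genes, and it rests on 3 genes. Arl4c, the tested gene not called, was at a log2 fold change of -0.24 (adjusted p = 0.0882). Lpcat3, a phospholipid acyltransferase, fell from 79.4 ± 3.90 to 54.8 ± 4.05 TPM, a log2 fold change of -0.53 (adjusted p = 0.00365). Nr1h2, the LXR-beta gene, fell from 111 ± 5.70 to 89.0 ± 10.3 TPM (-0.32, adjusted p = 0.0431), a call lost without any 1 library other than TGFB1 replicate 1, with no filter, after rescaling and without the intensity trend (adjusted p up to 0.126). The other 4 were under the filter, among them Nr1h3 and Abcg1 below 0.3 TPM in both group means and Mylip and Smpdl3a listed at 0.

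Of 10 tested genes of cholesterol uptake, storage and trafficking 2 fell and 2 rose. This is 40% called, against 30.4% of all tested genes. Scarb1, the HDL receptor, fell from 48.3 ± 2.68 to 24.9 ± 2.55 TPM, a log2 fold change of -0.93 (adjusted p = 0.00102). Npc2, the partner of Npc1 in lysosomes, fell from 407 ± 25.01 to 259 ± 23.8 TPM (-0.65, adjusted p = 0.00267). The oxysterol-binding protein gene Osbp rose from 41.6 ± 2.39 to 64.7 ± 1.31 TPM (0.63, adjusted p = 0.00121). Gramd1a, named after its values were seen, rose (0.49), a call lost without control replicate 1 or 3 or TGFB1 replicate 2 or 3 (adjusted p up to 0.0733). Star, the steroidogenic cholesterol carrier and a relative of Stard4, is not one of these 10 genes and was named after its values were seen. Star fell from 299.6 ± 23.9 to 143 ± 55.7 TPM (adjusted p = 0.0279), a call lost without any 1 control or with the filter dropped (adjusted p up to 0.0892). Without TGFB1 replicate 1 the log2 fold change of Star was -0.77 against -1.15 with all libraries.

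Of 16 tested further genes of fatty acid synthesis and elongation 4 fell and 0 rose. The share called was 25%, against 14.6% of all tested genes called lower and 30.4% called in either direction. Mlxipl, which encodes the carbohydrate-responsive factor ChREBP, fell from 8.47 ± 0.790 to 2.16 ± 1.19 TPM, a log2 fold change of -1.67 (adjusted p = 0.00814, and -0.93 with a pseudocount of 5). Hacd2, a dehydratase of the elongation cycle, fell from 21.02 ± 0.666 to 13.7 ± 1.204 TPM (-0.58, adjusted p = 0.00351). Acsl5, a further acyl-CoA synthetase, fell from 66.5 ± 2.93 to 48.8 ± 5.17 TPM (-0.44, adjusted p = 0.0113). Mid1ip1, which promotes assembly of acetyl-CoA carboxylase and was named after its values were seen, fell (-0.41, adjusted p = 0.00738).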

How the data were processed

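Poly(A) RNA libraries were made from 250 ng of total RNA, per the labels' protocols. Per the submitters' processing notes, tools were kallisto 0.44.0 and sleuth 0.30.0 and the build GRCm38, with no role given for either tool. The authors deposited a TPM-scale signal, with 1 column per library. Column totals run from 983434 to 1026702, so the values are not plain TPM. The summing of transcripts and use of strand were not given in the sources used here.

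For rows with a mean of 1 or more, limma 3.58.1 (R 4.3.3) was run on log2(TPM + 1), by lmFit and eBayes with an intensity trend. P-values are two-sided, adjusted by Benjamini-Hochberg over 12257 rows. Fold changes on this scale understate changes of low genes. Steps were tested on simulated data with errors drawn independently for each gene and library. That setting lacks the shared replicate differences seen here, so it does not show how these affect the calls. Coordinates and shared 31-mers come from GENCODE M21 (35101 of the table's IDs matched), computed with Python 3.11.15. Members with at least 25% of 31-mers shared are marked as uncertain.

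The members and lists were chosen with earlier results of these data known. Every member is named. Of each other lipid list up to 3 called genes with the largest change are named, and others are said to be chosen later. The alternatives were other pseudocounts, filters and scalings, no intensity trend, a replicate block, repeated rows removed (chosen after seeing the data) and each library left out. Protein sequences of paralogs were not used here. Some genes of the lists around the members are not reported here.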

Additional observations from a re-analysis of the deposited data

How the results depend on the processing

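Members called lower numbered 16 as reported and 7 with no filter, of which 2 were in the sterol branch against 9. After rescaling without mitochondrial and abundant genes 5 sterol branch genes were lower and 2 members, both fatty acid genes, were higher. Under quantile normalization and with the replicate block 1 member, a fatty acid gene, was higher. With each library left out, members lower ran from 4 to 18 and members higher from 0 to 1, sterol branch genes lower from 1 to 11, fatty acid genes lower from 2 to 7 and higher from 0 to 1. All genes higher ran from 1121 to 1992 and lower from 915 to 1951. The cause was not tested. No called member changed sign in any of the 16 alternatives.

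Uncalled members changed sign around 0: Acsl1 to -0.032 under quantile normalization, and Acaca and Acsl3 to 0.017 and 0.0015 after rescaling. With libraries left out their log2 fold changes ran from -0.21 to 0.12 for Fdps, -0.25 to 0.058 for Fdft1, -0.35 to 0.040 for Nsdhl, -0.0098 to 0.32 for Hsd17b7, -0.11 to 0.042 for Acaca, -0.19 to 0.067 for Elovl6, -0.037 to 0.23 for Me1 and -0.11 to 0.021 for Acsl3.

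Deviations from the group means correlated at 0.198, 0.153 and -0.0384 between libraries numbered 1, 2 and 3, so not every pair passed 0.1 and the samples were not treated as paired. TGFB1 replicate 3 correlated best with control replicate 2 (0.184), the other treated libraries with the control of their own number. With a replicate block 19 members were lower and 1 higher, 12 of the former in the sterol branch. Idi1, Sqle, Lss, Cyp51 and Abca1 were then lower and Scd2 higher, and Hmgcs1 and Insig2 missed the threshold. Depth is unknown, so how far low genes such as Ebp could be measured cannot be said.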

Other observations

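Of 17 tested further genes of glycerolipid synthesis and lipid droplets 7 fell and 3 rose, so that 58.8% were called, against 30.4% of all tested genes. Plin3, a droplet coat gene, fell from 189 ± 4.86 to 99.4 ± 18.6 TPM, a log2 fold change of -0.94 (adjusted p = 0.00375), and Lpin2, a paralog of Lpin1, rose from 10.7 ± 0.559 to 24.5 ± 4.51 TPM (1.10, adjusted p = 0.00190). The droplet coat gene Plin2 was at 0.26 and did not pass (adjusted p = 0.1003). Pcyt1a, whose product acts in phosphatidylcholine synthesis, fell from 58.4 ± 7.48 to 33.1 ± 4.47 TPM (-0.80, adjusted p = 0.00552). Pcyt2 (-0.71), Chka (-0.55) and Chkb (-0.31) of the same list also fell and were named after their values were seen. The genes that rose beside Lpin2 were Agpat1 (0.29) and Agpat4 (0.37), named likewise, and both calls were lost without any 1 control or TGFB1 replicate 2 or with the filter dropped (adjusted p up to 0.108). The Agpat4 call was also lost without TGFB1 replicate 1 and under quantile normalization. The Chka call was lost without any 1 control or TGFB1 replicate 2, with no filter, after rescaling and without the intensity trend (adjusted p up to 0.123), and its fold change was -0.36 without TGFB1 replicate 1. The Chkb call was lost without control replicate 3 (adjusted p = 0.0502). Like the sterol enzymes, Pcyt2 was highest in control replicate 1 (101, 75.9 and 76.2 TPM) and in TGFB1 replicate 1, though there by little (51.8, 49.96 and 51.2 TPM).

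Of 13 tested genes of fatty acid oxidation and its control 5 fell and 2 rose, or 53.8% called, against 30.4% of all tested genes. The rises were 15.4% of them, near the 15.8% of all tested genes called higher. Ppargc1a, the PGC-1alpha coactivator gene, was at 5.81, 5.67 and 5.82 TPM in the controls and 0.299, 0.720 and 1.24 TPM after TGFB1 (log2 fold change -1.98, adjusted p = 0.00122, and -0.91 with a pseudocount of 5). The mitochondrial enzyme genes Acadl (-0.45, adjusted p = 0.00260) and Acaa2 (-0.53, adjusted p = 0.0264) fell, the latter a call lost without any 1 control or with the filter dropped (adjusted p up to 0.0849). Cpt1a and Cpt1c, which admit fatty acids to oxidation or bind their coenzyme A esters, rose (0.32 and 0.34) and were named after their values were seen. Leaving out control replicate 1 or 3, TGFB1 replicate 2 or 3, or the filter lost both calls (adjusted p up to 0.122). Cpt1c was also lost without control replicate 2, and Cpt1a under median-of-ratios scaling and without the intensity trend.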
